A study of Mus musculus with 3 samples.

Results

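The genes described here are 7 members of the colony-stimulating factor system, 3 ligands (*Csf1*, *Il34* and *Csf2*) and 4 receptor chains (*Csf1r*, *Csf2ra*, *Csf2rb* and *Csf3r*), chosen by symbol out of 32285 genes listed in the deposited matrices, and all 7 were found. They were followed in single-cell RNA-seq of isolated mouse glomeruli, with 1 library for each of 3 conditions, so that no difference between conditions has a replicate check and no test between conditions was possible. The MRL/lpr library came from female MRL/lpr mice, a lupus nephritis model that carries a mutation of the death receptor gene *Fas*, which entered the model at about 16 weeks of age. The MRL/lpr + hUC-MSCs library (called treated here) came from such mice given human umbilical cord mesenchymal stem cells into a vein, and the study sampled them at day 21. The third library is labelled only as a blank control. The study's other experiments used MRL/MpJ mice as controls, but for this library neither the strain nor, for any library, the number of mice was given in the sources used here, so disease, genetic background and differences between single libraries cannot be told apart.

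CSF-1 and IL-34 are both ligands of the receptor tyrosine kinase encoded by *Csf1r*, which monocytes and macrophages need for survival and differentiation. GM-CSF, encoded by *Csf2* and made among others by activated lymphocytes, signals through a specific chain (*Csf2ra*) and a chain shared with other cytokines (*Csf2rb*), and G-CSF signals through *Csf3r*, the receptor of neutrophil production. In the kidney, tubular cells and resident stromal cells are known sources of CSF-1 and IL-34 during injury.

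Cells were barcodes with at least 1000 UMIs and at most 10% mitochondrial UMIs that were not predicted doublets, which left 10047 control, 12698 MRL/lpr and 14927 treated cells. The libraries held 94903163, 103319588 and 90812138 UMIs, and the members accounted for 15352, 23292 and 23566 UMIs in these cells. Classes were named from marker lists that did not include the members. In every library 11 of 12 endothelial, 11 of 11 podocyte, 11 of 11 neutrophil and 11 of 11 patrolling monocyte markers were at least 2-fold higher in their class than in the other cells, and of 17 macrophage markers 13 were in MRL/lpr and 11 in the treated library. For each gene and class the level is given as UMIs per 1000000 UMIs of the class (CPM), with an exact Poisson 95% interval, and a ratio between libraries is a log2 ratio of CPM with an exact conditional binomial 95% interval. All these intervals cover counting error only. Pairs of libraries shared 35 to 61 barcodes, where 22.9 to 34.4 would be shared if barcodes were independent. RNA free in the suspension was read from droplets with 1 to 100 UMIs (called empty droplets), and the share of each class's UMIs that it could account for was estimated at 3.80% to 8.91% in endothelial cells and at 6.75%, 53.0% and 40.0% in proximal tubule cells of the control, MRL/lpr and treated library. Myeloid cells were few in the control, with 116 mononuclear phagocytes against 2132 and 3668, and 23 neutrophils against 296 and 218. A share of cells in droplet data is set by capture and dissociation as well as by the tissue.

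The promoter stretches of *Csf1*, *Csf2ra* and *Csf3r* are shown because these genes marked the 3 main patterns below, a ligand of endothelial cells, a receptor of all myeloid classes and a receptor of neutrophils. They are the 250 bases before the RefSeq transcription start in GRCm38.p6, read 5′ to 3′ on the gene's strand, at chr3:107760470-107760719 on the minus strand, chr19:61228419-61228668 on the minus strand and chr4:126024409-126024658 on the plus strand. RefSeq entries matched 4 of the 7 members (*Csf1*, *Csf2*, *Csf2ra* and *Csf3r*).
Csf1: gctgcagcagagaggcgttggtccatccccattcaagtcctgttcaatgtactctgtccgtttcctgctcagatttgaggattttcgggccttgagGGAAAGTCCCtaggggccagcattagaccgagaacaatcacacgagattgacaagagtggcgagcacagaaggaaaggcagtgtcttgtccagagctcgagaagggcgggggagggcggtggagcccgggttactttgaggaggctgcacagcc
Csf2ra: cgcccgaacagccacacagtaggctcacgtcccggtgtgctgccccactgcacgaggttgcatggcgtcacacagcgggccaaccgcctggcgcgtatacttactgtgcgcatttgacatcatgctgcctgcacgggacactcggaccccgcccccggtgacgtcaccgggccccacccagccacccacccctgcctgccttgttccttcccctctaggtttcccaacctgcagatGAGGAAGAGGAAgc
Csf3r: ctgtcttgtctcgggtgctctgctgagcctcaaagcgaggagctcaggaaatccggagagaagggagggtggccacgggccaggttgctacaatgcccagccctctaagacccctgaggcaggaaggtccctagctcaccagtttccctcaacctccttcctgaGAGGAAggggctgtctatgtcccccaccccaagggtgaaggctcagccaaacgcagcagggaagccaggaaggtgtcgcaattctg
Capitals mark the general form of an NF-κB site (3 G, any 2 bases, 3 T and 2 C) in *Csf1*, where it lies on the reverse strand with its leftmost base 154 bases before the start, and GAGGAA, a core of sites for the myeloid factor PU.1, in *Csf2ra* (14 and 8 bases before the start) and *Csf3r* (86 bases). Across 32851 mouse promoters of the same length, read on both strands, the NF-κB form was in 1.41% and GAGGAA in 23.3%. TTGCNNAA, a C/EBP form, was in 9.56% of promoters and in that of *Csf2*. TGANTCA, TTCNNNGAA and TATAAA were in 6.75%, 7.02% and 12.4% of promoters and in none of these 4 windows. The GENCODE positions of *Csf2ra* and *Csf3r* given below begin before these RefSeq starts. By them, the GAGGAA at 8 bases in *Csf2ra* and that at 86 bases in *Csf3r* lie inside the gene. A match is a run of letters and says nothing of whether a factor binds.

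*Csf1* (chr3:107741048-107760469 on the minus strand, GRCm38, protein coding) was carried mainly by endothelial cells in all 3 libraries. In the control, 10516 UMIs in 5690 endothelial cells gave 363 CPM (356 to 370). In MRL/lpr, 7501 UMIs in 4162 cells gave 377 CPM (368 to 386), and in the treated library 5616 UMIs in 4890 cells gave 285 CPM (278 to 293). The control and MRL/lpr levels lay close together and the treated level below both. Endothelial cells held 82.3%, 72.9% and 66.3% of all *Csf1* UMIs in cells. The 46, 236 and 2302 cells that no class fitted held some too, with 9, 45 and 592 in a cluster led by *AY036118*. Their part in the shares was not tested. The empty droplets of the 3 libraries read 113, 117 and 119 CPM, all below the endothelial levels.

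A *Csf1* UMI was found in 69.0%, 67.8% and 53.9% of endothelial cells, whose median depths were 4257, 3753.5 and 3000.5 UMIs. With every cell thinned to 1000 UMIs, the shares were 28.7%, 29.6% and 23.3%. Podocytes, which lay lowest among the resident kidney classes, had a *Csf1* UMI in 3.34%, 5.58% and 6.49% of cells at median depths of 6667.5, 7197 and 6652 UMIs, with thinned shares of 0.720%, 0.606% and 0.649%. The lower share of *Csf1*-positive endothelial cells in the treated library thus also appeared at equal depth.

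The mesangial and mural class was named from marker lists of mesangial, smooth muscle or renin, and interstitial stroma cells. Of 12 mesangial markers, 12, 12 and 11 were at least 2-fold higher there than in other cells. Of 8 interstitial stroma markers, 2, 4 and 5 were. Of its 2251 treated cells, 1557 and 573 lay in clusters led by *Col3a1* and *Col12a1*, which fitted no single list. Another 15 lay in the mesangial cluster led by *Gm12840* and 106 in the *Tagln* cluster. Mesangial and mural cells came next among the abundant kidney classes, at 135, 114 and 92.4 CPM of *Csf1* (1908, 1332 and 1330 UMIs). The MRL/lpr and treated values lay below the empty droplets, and after subtraction of the estimated free RNA the 3 levels were 136, 114 and 87.6 CPM. Endothelial markers summed to 1735, 3281 and 3111 CPM in mesangial and mural cells, against 3352, 3440 and 4326 CPM in the empty droplets, and their part in the *Csf1* level was not tested. In MRL/lpr the endothelial level was higher than the mesangial and mural level by 1.73 on the log2 scale. Tubule cells read 49.1, 76.5 and 79.7 CPM, all below the empty droplets, and 45.6, 42.1 and 56.0 CPM once the estimated free RNA was subtracted. They were not uniform, since the proximal tubule cluster led by *Kap* and *Spp1*, with 1020 of the 1859 MRL/lpr tubule cells, read 165.5 CPM (149 to 183) in that library, above the empty droplets. In MRL/lpr the loop and distal tubule (96.6 CPM) was not separated from mesangial and mural cells beyond counting error, nor the proximal tubule (75.0 CPM) from the collecting duct (59.3 CPM). T cells lay at 15.9, 29.0 and 44.1 CPM and NK cells at 5.39, 19.2 and 25.3 CPM, on no more than 57 UMIs in a library. The mononuclear phagocytes, which carry the receptor, read 11.7, 13.4 and 16.2 CPM.

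Neutrophils and basophil or mast cell-like cells stood outside this order.

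**Figure D1:**
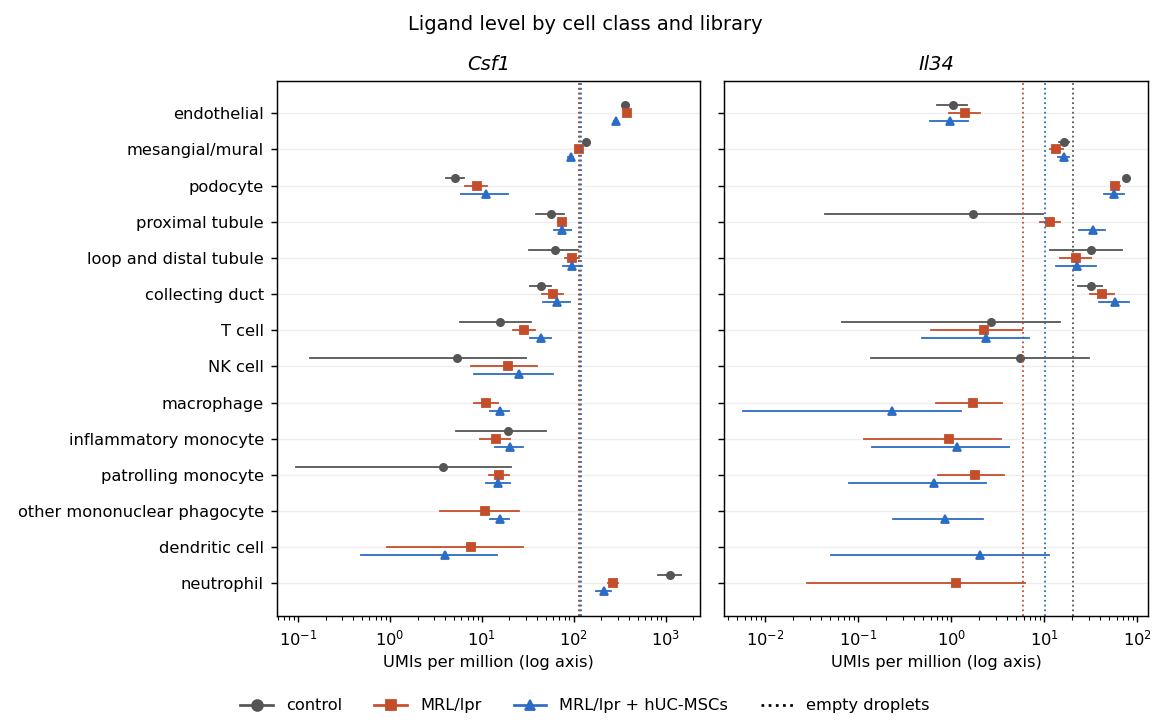
*Csf1* and *Il34* levels (CPM, log axis) by cell class, with 1 point per library, horizontal bars for the exact Poisson 95% interval and dotted lines for the empty droplets. *Csf1* was highest in endothelial cells and neutrophils (363, 377 and 285 CPM in endothelial cells of the control, MRL/lpr and treated library) and *Il34* in podocytes and collecting duct.

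Neutrophils read 1110 CPM of *Csf1* in the control on 48 UMIs of 23 cells, 270 CPM in MRL/lpr on 244 UMIs of 296 cells and 212 CPM in the treated library on 126 UMIs of 218 cells. Endothelial marker genes summed to 116, 671 and 893 CPM in the neutrophils and to 3352, 3440 and 4326 CPM in the empty droplets. Podocyte marker genes summed to 5295, 502 and 296 CPM in the neutrophils against 6418, 3045 and 1802 CPM in the empty droplets, so the control neutrophils, where *Csf1* was highest, held nearly the level of the empty droplets. Their part in the *Csf1* level was not tested. Basophil or mast cell-like cells, 1 control, 1 MRL/lpr and 15 treated cells, held 8, 8 and 54 *Csf1* UMIs, and 13 of the 15 treated cells had at least 1. *Csf1* was among the 5 leading genes of that cluster, so its level there is a description of the cluster.

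Between MRL/lpr and control, endothelial *Csf1* differed by 0.054 on the log2 scale (0.012 to 0.097), beside a median of 0.03 over all genes compared in that class, and by -0.045 with an alternative clustering (1 level, 30 components and a resolution of 2, in place of 2 levels with 10 and then 20 components and a resolution of 1). Of 5 endothelial clusters, 1 (led by *Calca* and *Tspan8*) was higher in MRL/lpr by 0.34 (0.13 to 0.55) and the intervals of the others included 0. Control endothelial cells lay mostly in the clusters led by *Cyp26b1* (2536 and 2901 cells, against 87 and 66 in MRL/lpr) and MRL/lpr cells in the *Calca* cluster (3205 against 136 control cells). Mesangial and mural *Csf1* was lower in MRL/lpr, at -0.25 (-0.35 to -0.15). There the clusters differed, since that led by *Gm12840* and *Sfrp2* read -0.39 (-0.52 to -0.26) and that led by *Col3a1* and *Mgp* read 1.08 (0.50 to 1.69), while the *Tagln* cluster, with the most MRL/lpr cells (1144, and 387 control cells), read 0.044 (-0.17 to 0.26). Neutrophil *Csf1* was lower in MRL/lpr by 2.04 on the log2 scale, at -2.04 (-2.49 to -1.56), a ratio that rests on the 23 control neutrophils with their podocyte markers, beside an all-gene median of -0.27 with 36.1% of all genes past 2-fold. Tubule *Csf1* was higher at 0.64 (0.34 to 0.95) as read, while the levels after subtraction of free RNA, 45.6 and 42.1 CPM, were not.

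Between the treated and the untreated MRL/lpr library, endothelial *Csf1* was lower, at -0.40 (-0.45 to -0.35), where the median over all genes was 0.12. All 5 endothelial clusters were lower in the treated library, at -0.19, -0.67, -0.40, -0.42 and -0.72, each with its interval below 0. Most treated endothelial cells lay in the clusters led by *Sele* (2469 cells) and by *Gm30382* and *Sost* (1945 cells), and most MRL/lpr cells in that led by *Calca* and *Tspan8* (3205 cells), so the ratios of these 3 clusters set large against small numbers of cells, and those of the *Cyp26b1* clusters rest on 183 against 87 and 33 against 66 cells. Mesangial and mural *Csf1* read -0.30 (-0.41 to -0.19), but 0.10 when cells with 200 to 3000 genes were used. The class lay in different clusters, since those led by *Col3a1* and by *Col12a1* held 1557 and 573 treated cells against 177 and 31 untreated ones. Within them the ratio was -0.47 (-0.75 to -0.19) and 0.30 (-0.51 to 1.26), and it was 0.15 (-0.17 to 0.46) in the *Tagln* cluster of 106 treated and 1144 untreated cells. Neutrophils read -0.35 (-0.67 to -0.03), beside a median of -0.17 over all genes in that class. T cells read 0.61 (0.04 to 1.18) on 57 against 52 UMIs, and -0.093 when predicted doublets were kept. Their *Csf1* levels lay below the empty droplets, endothelial markers in T cells summed to 584 CPM in the untreated and 732 CPM in the treated library (their part was not tested), and the 2 larger T cell clusters read 0.63 (-0.08 to 1.35) and -0.52 (-3.66 to 1.50). In the proximal tubule the level was 75.0 CPM in the untreated and 75.2 CPM in the treated library. The clusters of that class did not go the same way. That led by *Kap* and *Spp1* (1020 untreated and 202 treated cells) was lower in the treated library, at -0.56 (-0.97 to -0.17). The treated and MRL/lpr comparisons share the MRL/lpr library, so a high or low value there enters both.

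*Il34* (chr8:110741829-110805924 on the minus strand) was carried by podocytes, the epithelial cells that cover the glomerular capillaries, and by tubule cells, and hardly at all by the endothelium. Podocytes read 75.5 CPM in the control (71.3 to 79.8, 1238 UMIs), 57.8 CPM in MRL/lpr (51.9 to 64.1, 355 UMIs) and 56.0 CPM in the treated library (43.2 to 71.4, 65 UMIs of 154 cells). The collecting duct read 31.3, 42.0 and 57.0 CPM, and the loop and distal tubule 31.5, 21.96 and 22.6 CPM. Mesangial and mural cells lay at 16.2, 13.4 and 16.1 CPM and endothelial cells at 1.04, 1.41 and 0.965 CPM. The control podocytes thus stood highest, and in the treated library podocytes and collecting duct were not separated beyond counting error. Empty droplets read 20.5, 5.90 and 10.2 CPM. In MRL/lpr and the treated library all these classes except the endothelium were above the empty droplets, and in the control mesangial and mural cells were below them too.

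An *Il34* UMI was found in 38.8%, 33.1% and 29.2% of podocytes, and in 7.28%, 4.97% and 5.84% after thinning to 1000 UMIs. Endothelial cells, at 3000.5 to 4257 UMIs per cell against 6652 to 7197 in podocytes, had a UMI in 0.527%, 0.649% and 0.348% of cells, and in 0.158%, 0.144% and 0.143% after thinning. Podocyte *Il34* was lower in MRL/lpr than in the control at -0.39 (-0.56 to -0.21), where the median over all genes in podocytes was -0.08, and both podocyte clusters were lower, at -0.32 and -0.45. Treated and untreated podocytes were not distinguishable, at -0.04 (-0.45 to 0.34). Podocytes were 2362, 825 and 154 of the cells, and their share of all *Il34* UMIs was 79.6%, 49.9% and 14.9%, while that of mesangial and mural cells was 14.7%, 22.1% and 53.2%. Over all cells *Il34* read 23.9, 11.4 and 7.32 CPM, at -1.07 (-1.20 to -0.94) for MRL/lpr against control. The pooled difference was larger than that within podocytes, and the number of podocytes captured differed in the same direction.

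Proximal tubule *Il34* read 1.71 CPM in the control on 1 UMI of 64 cells, 11.6 CPM in MRL/lpr on 71 UMIs and 33.0 CPM in the treated library on 39 UMIs. The treated level was higher than the untreated at 1.51 (0.90 to 2.09), and at 0.25 with clustering at 1 level only. The control ratio, 2.76 (0.24 to 8.08), turned to -0.094 when predicted doublets were kept.

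*Csf2* (chr11:54247271-54249667 on the minus strand) was near the limit of detection. It had 3 UMIs in all control cells, 16 in MRL/lpr and 8 in the treated library. T cells held 1, 4 and 2 of these and NK cells 2, 3 and 3. NK cells thus read 10.8 CPM (1.31 to 39.0), 8.22 CPM (1.70 to 24.0) and 15.2 CPM (3.13 to 44.3), with intervals that overlapped. A further 7 of the MRL/lpr UMIs were in 1 basophil or mast cell-like barcode. Single UMIs lay in the endothelial cluster led by *Calca* in MRL/lpr and in treated cells. Others lay in the loop and distal tubule and in unnamed cells of the treated library. No *Csf2* UMI was found in 116, 2132 and 3668 mononuclear phagocytes, which allows a level of up to 5.87, 0.283 and 0.216 CPM (3 UMIs). Over all cells the treated and untreated libraries differed by -0.93 (-2.36 to 0.38), and no ratio to the control was taken, since both libraries together held under 20 UMIs.

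*Csf1r* (chr18:61100598-61132149 on the plus strand) was carried by all mononuclear phagocyte classes and was highest in patrolling monocytes, the Ly6C-low cells that crawl along the vessel wall. Patrolling monocytes read 495 CPM in the control (414 to 587, 132 UMIs of 76 cells), 672 CPM in MRL/lpr (647 to 698, 2645 UMIs of 1032 cells) and 687 CPM in the treated library (658 to 717, 2124 UMIs of 1064 cells). The class included a cluster led by the haemoglobin genes *Hbb-bs*, *Hbb-bt* and *Hba-a1* (9, 405 and 609 cells), which read 653 CPM in MRL/lpr and 705 CPM in treated cells. The clusters led by *Il10* and by *Ly6i* read 689 and 686 CPM and 650 and 636 CPM. The part of haemoglobin RNA in the class was not tested. Inflammatory monocyte markers summed to 3050, 2029 and 1905 CPM in patrolling monocytes, against 247, 498 and 544 CPM in the empty droplets. Their part in the *Csf1r* level was not tested. Inflammatory monocytes read 346, 412 and 347 CPM, and macrophages 396 CPM in MRL/lpr and 212 CPM in the treated library. The control held only 6 macrophages, so that class is given for 2 libraries. Mononuclear phagocytes that fitted none of these names read 510 and 476 CPM in MRL/lpr and treated cells. In MRL/lpr, patrolling monocytes were higher than macrophages by 0.76 on the log2 scale, and inflammatory monocytes and macrophages were not separated beyond counting error.

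**Figure D2:**
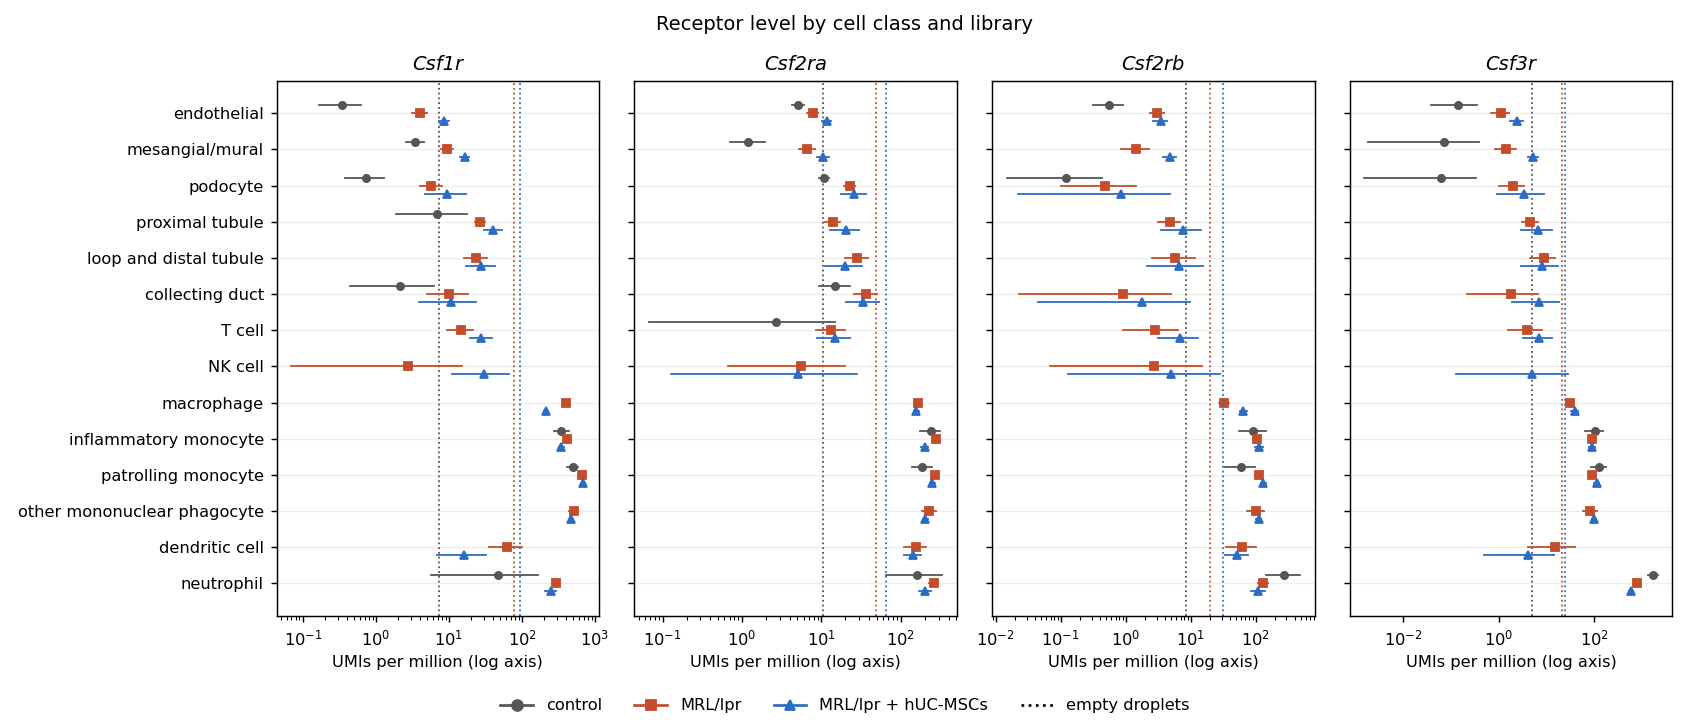
Levels (CPM, log axis) of *Csf1r*, *Csf2ra*, *Csf2rb* and *Csf3r* by cell class, with 1 point per library, bars for the exact Poisson 95% interval and dotted lines for the empty droplets. *Csf1r* peaked in patrolling monocytes (495, 672 and 687 CPM), *Csf3r* in neutrophils (1711, 774 and 600 CPM), and the 4 receptors lay low in endothelial and mesangial cells.

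The mononuclear phagocytes together held 68.0%, 85.9% and 82.4% of the *Csf1r* UMIs. A further 46, 236 and 2302 cells stayed unnamed, with 2052 treated cells in a cluster led by *AY036118*, *Gm42418* and *Gpnmb*, and read 63.5, 117 and 117 CPM of *Csf1r*. Endothelial cells read 0.345, 3.97 and 8.54 CPM, below the 7.30, 77.7 and 94.1 CPM of the empty droplets. Subtraction of the estimated free RNA (8.91% of their UMIs in MRL/lpr) left no *Csf1r* in MRL/lpr endothelial cells.

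A *Csf1r* UMI was found in 78.9%, 87.2% and 79.4% of patrolling monocytes, and in 42.1%, 48.4% and 47.5% after thinning. Endothelial cells had a UMI in 0.176%, 1.85% and 3.31% of cells, and in 0.0527%, 0.457% and 1.15% after thinning, with median depths of 4257, 3753.5 and 3000.5 UMIs against 3230, 3456.5 and 2598 in patrolling monocytes. Patrolling monocyte *Csf1r* was higher in MRL/lpr than in the control at 0.44 (0.19 to 0.71), beside an all-gene median of -0.07. The class lay in different clusters, since 64 of the 76 control patrolling monocytes were in a cluster led by *Gm50022* and *Hba-a1* that held 1 MRL/lpr cell, so no ratio within these clusters was taken, here or for *Csf2ra* and *Csf2rb*. In the wider cluster led by *Clec4e* at the first level of clustering (86 control and 1110 MRL/lpr cells), *Csf1r* read 508 (434 to 592) and 670 CPM (646 to 694), *Csf2ra* 202 (156 to 257) and 274 CPM (259 to 290), and *Csf2rb* 76.6 (49.6 to 113) and 116 CPM (107 to 127). Treated and untreated patrolling monocytes read within 0.03 (-0.05 to 0.11) of each other. Inflammatory monocytes were lower in the treated library, at -0.25 (-0.40 to -0.10), beside an all-gene median of -0.08. This was not so in the wider cluster led by *Ly6c2* at the first level of clustering (383 MRL/lpr and 976 treated cells), where *Csf1r* read 370 and 404 CPM, while the class read -0.40 with the alternative clustering.

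Macrophage *Csf1r* was lower in the treated than in the untreated library, at -0.90 (-1.02 to -0.79), beside an all-gene median of -0.18. In the mononuclear phagocytes that fitted no name (120 untreated and 1506 treated cells) it read -0.10 (-0.29 to 0.10). Their larger cluster, with the macrophage markers *Slpi* and *Marco* among its leading genes, held 78 and 816 cells. All mononuclear phagocytes together read -0.26 (-0.31 to -0.21), so the macrophage value describes only the cells given that name. The share of macrophages with a UMI was 78.3% and 57.1%, and 34.3% and 17.6% after thinning. The macrophages of the 2 libraries lay in different clusters. The cluster led by *Cd5l* and *Fcna* held 497 MRL/lpr and 165 treated cells and read 451 and 279 CPM, at -0.69 (-0.90 to -0.50). The proliferating cluster led by *Pclaf* and *Birc5* (54 and 45 cells) read 244 and 93.2 CPM, at -1.39 (-1.89 to -0.91). The cluster led by *Negr1* and *Cxcl14* (69 and 134 cells) read 182 and 276 CPM, at 0.60 (0.16 to 1.06), and was the exception in direction. A cluster led by *Gpnmb*, with 10 MRL/lpr and 400 treated cells, read 199 CPM in the treated library. Patrolling monocyte markers summed to 1009 CPM in MRL/lpr macrophages and 496 CPM in treated ones (707 and 688 CPM in the empty droplets), and their part in the difference was not tested.

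**Figure D3:**
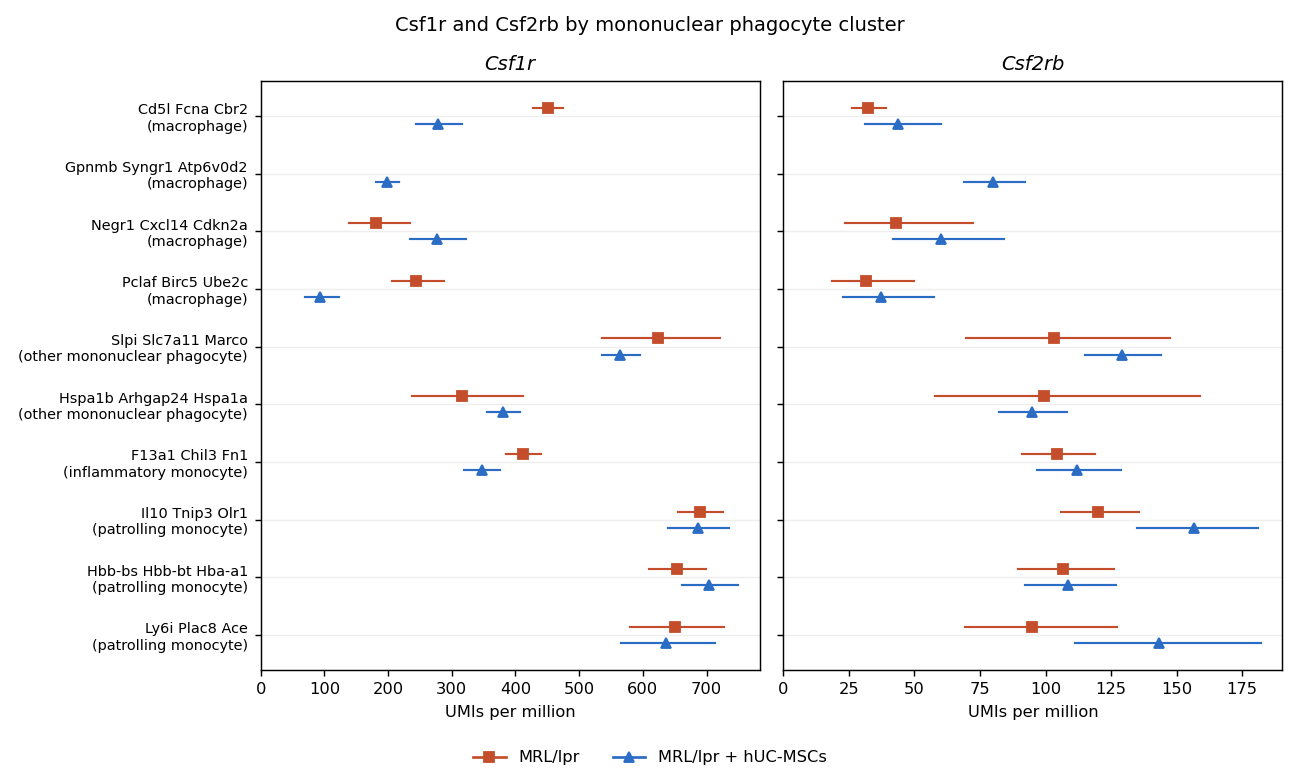
*Csf1r* and *Csf2rb* levels (CPM) in 10 clusters of mononuclear phagocytes with at least 20 cells, for the MRL/lpr and treated library, with exact Poisson 95% intervals. In the *Cd5l* cluster *Csf1r* went from 451 to 279 CPM, and in the *Gpnmb* cluster, nearly all treated cells, *Csf2rb* read 80.0 CPM.

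Neutrophils also held *Csf1r* UMIs, 2 in the control, 265 in MRL/lpr (293 CPM) and 147 in the treated library (248 CPM). The UMIs lay in 89 of 296 MRL/lpr and 71 of 218 treated neutrophils, and the positive cells were deeper, with a median of 5154 against 1752 UMIs in MRL/lpr and 3853 against 1766 in the treated library. Inflammatory monocyte markers summed to 1919, 1769 and 1263 CPM in the neutrophils and to 247, 498 and 544 CPM in the empty droplets, and patrolling monocyte markers to 2521, 2870 and 2390 CPM against 266, 707 and 688 CPM. Their part in the *Csf1r* level of neutrophils was not tested. Dendritic cells lay at 61.7 CPM (42 cells) and 16.1 CPM (85 cells).

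*Csf2ra* (chr19:61223957-61228429 on the minus strand) was found in all the myeloid classes. In MRL/lpr it read 275 CPM in inflammatory monocytes, 272 in patrolling monocytes, 262 in neutrophils and 228 in the unnamed mononuclear phagocytes, and no neighbours in that order were separated beyond counting error. Macrophages (165 CPM) lay below the unnamed mononuclear phagocytes by 0.47 (0.16 to 0.77) on the log2 scale, and dendritic cells (154 CPM) were not separated from macrophages. Patrolling monocytes read 187, 272 and 249 CPM, higher in MRL/lpr than in the control at 0.54 (0.13 to 0.98), again between different clusters. Inflammatory monocytes read 239, 275 and 201 CPM, lower in the treated than in the untreated library at -0.45 (-0.65 to -0.26), beside an all-gene median of -0.08. This ratio rests on 350 untreated and 354 treated cells. The wider cluster led by *Ly6c2* held 383 and 976, and no ratio of *Csf2ra* was taken there. Neutrophils read 162, 262 and 202 CPM. Macrophages read 165 and 157 CPM, with a ratio of -0.07 (-0.22 to 0.09).

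Podocytes and collecting duct held *Csf2ra* UMIs with almost no *Csf2rb*. Podocytes read 10.7, 22.6 and 25.9 CPM of *Csf2ra* (176, 139 and 30 UMIs) and 0.122, 0.488 and 0.862 CPM of *Csf2rb* (2, 3 and 1 UMIs), while the empty droplets read 10.6, 48.9 and 65.6 CPM of *Csf2ra* and 8.39, 19.8 and 31.4 CPM of *Csf2rb*. Subtraction of the estimated free RNA left 10.7, 21.03 and 22.7 CPM of *Csf2ra* in podocytes and 0 of *Csf2rb*. The collecting duct read 14.9, 36.5 and 33.8 CPM of *Csf2ra* on 21, 40 and 19 UMIs and at most 1 UMI of *Csf2rb*. The *Csf2ra* levels of both classes lay below the empty droplets in MRL/lpr and the treated library. Patrolling monocyte markers summed to 73.6, 426 and 286 CPM in podocytes and to 59.8, 188 and 166 CPM in the collecting duct. Macrophage markers summed to 391, 705 and 990 CPM and to 4.98, 1027 and 2511 CPM, and the part of these in the *Csf1r* or *Csf2ra* level of the 2 classes was not tested. A *Csf2ra* UMI was in 6.99%, 15.8% and 17.5% of podocytes and in 0.847%, 2.06% and 3.90% after thinning, against 2.50%, 3.68% and 4.48% of endothelial cells and 0.475%, 1.01% and 1.49% after thinning. Podocyte *Csf2ra* was higher in MRL/lpr than in the control, at 1.08 (0.74 to 1.41), with 0.88 and 1.23 in the 2 podocyte clusters and 0.97 after subtraction of free RNA. Treated and untreated podocytes differed by 0.19 (-0.43 to 0.77).

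*Csf2rb* (chr15:78325752-78353847 on the plus strand) lies beside *Csf2rb2* (chr15:78282507-78305721 on the minus strand), a mouse gene for an interleukin-3 receptor chain. Of the 50-base windows of the *Csf2rb* transcript, 18.4% also occurred in that of *Csf2rb2*, and none of the last 500 windows, the end that 3′ libraries read, so the counts of the pair are mostly separable. *Csf2rb* read 59.96, 113 and 132 CPM in patrolling monocytes, 92.5, 104 and 112 in inflammatory monocytes and 277, 132 and 109 in neutrophils. Patrolling monocytes were higher in MRL/lpr than in the control at 0.91 (0.19 to 1.73) on 443 against 16 UMIs, between different clusters, and neutrophils were lower at -1.08 (-1.94 to -0.08) on 119 against 12 UMIs, beside an all-gene median of -0.27 and the podocyte markers of the control neutrophils (5295 CPM, and 502 CPM in MRL/lpr). Treated patrolling monocytes were higher than untreated ones, at 0.23 (0.04 to 0.43). Their largest treated cluster, led by *Hbb-bs* (609 treated and 405 untreated cells), read 0.03 (-0.31 to 0.37). Those led by *Il10* and by *Ly6i* read 0.38 (0.11 to 0.66) and 0.60 (0.03 to 1.17). The order in MRL/lpr from neutrophils to unnamed mononuclear phagocytes (102 CPM) had no step beyond counting error.

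Macrophage *Csf2rb* was higher in the treated than in the untreated library, 65.0 against 33.0 CPM on 284 and 135 UMIs, at 0.98 (0.68 to 1.28). A UMI was in 27.6% and 17.1% of macrophages, and in 8.60% and 2.70% after thinning, against 1.31% and 1.37% of endothelial cells (0.327% and 0.264% after thinning). The macrophages' median depths were 5030 and 5958 UMIs. Within clusters the ratios were smaller and their intervals included 0, at 0.44 (-0.14 to 0.99) in the *Cd5l* cluster, 0.48 (-0.45 to 1.49) in the *Negr1* cluster and 0.25 (-0.75 to 1.25) in the *Pclaf* cluster. The *Gpnmb* cluster, nearly confined to the treated library, read 80.0 CPM. The mix of clusters thus differed between the libraries beside the class ratio. *Csf2rb2* went the same way, from 5.14 to 26.1 CPM on 21 and 114 UMIs, at 2.34 (1.66 to 3.09).

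*Csf3r* (chr4:126024550-126044440 on the plus strand) was highest in neutrophils in every library. They read 1711 CPM in the control (1344 to 2148, 74 UMIs of 23 cells), 774 CPM in MRL/lpr (717 to 833, 700 UMIs of 296 cells) and 600 CPM in the treated library (539 to 665, 356 UMIs of 218 cells). The levels of the 3 libraries did not overlap in their counting intervals. In MRL/lpr the next class, patrolling monocytes at 90.5 CPM, was lower by 3.10 on the log2 scale, and was not separated from inflammatory monocytes (88.6 CPM) or the unnamed mononuclear phagocytes (82.4 CPM). Macrophages read 30.6 and 38.9 CPM in the MRL/lpr and treated library, and endothelial cells 0.138, 1.11 and 2.39 CPM, below the 4.98, 20.8 and 24.7 CPM of the empty droplets. Neutrophils held 52.1%, 45.3% and 19.1% of the *Csf3r* UMIs, and the mononuclear phagocytes 39.4%, 45.7% and 61.5%.

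A *Csf3r* UMI was found in 95.7%, 84.5% and 75.7% of neutrophils, whose median depths were 1229, 2016.5 and 2053 UMIs, and in 87.0%, 58.1% and 52.8% after thinning. Endothelial cells had a UMI in 0.0703%, 0.529% and 0.961% of cells, and in 0.0176%, 0.144% and 0.389% after thinning. Neutrophil *Csf3r* was lower in MRL/lpr than in the control, at -1.15 (-1.49 to -0.78), beside an all-gene median of -0.27 with 36.1% of all genes past 2-fold and the same podocyte markers, and at -0.53 when predicted doublets were kept. It was lower in the treated than in the untreated library, at -0.37 (-0.56 to -0.18), beside an all-gene median of -0.17. The markers of neutrophils, which include very abundant granule genes, summed to 112499, 134925 and 209195 CPM in the 3 libraries. A larger share taken by these genes lowers the CPM of all others, and the part of this in the ratios was not tested. Patrolling monocytes and macrophages read higher in the treated library, with 0.31 (0.09 to 0.53) and 0.35 (0.01 to 0.69). The macrophages lay in different clusters, and those led by *Cd5l*, *Pclaf* and *Negr1* read 0.45 (-0.15 to 1.02), -0.17 (-1.54 to 1.17) and -0.31 (-1.34 to 0.75), so none of these 3 set the libraries apart beyond counting error.

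**Figure D4:**
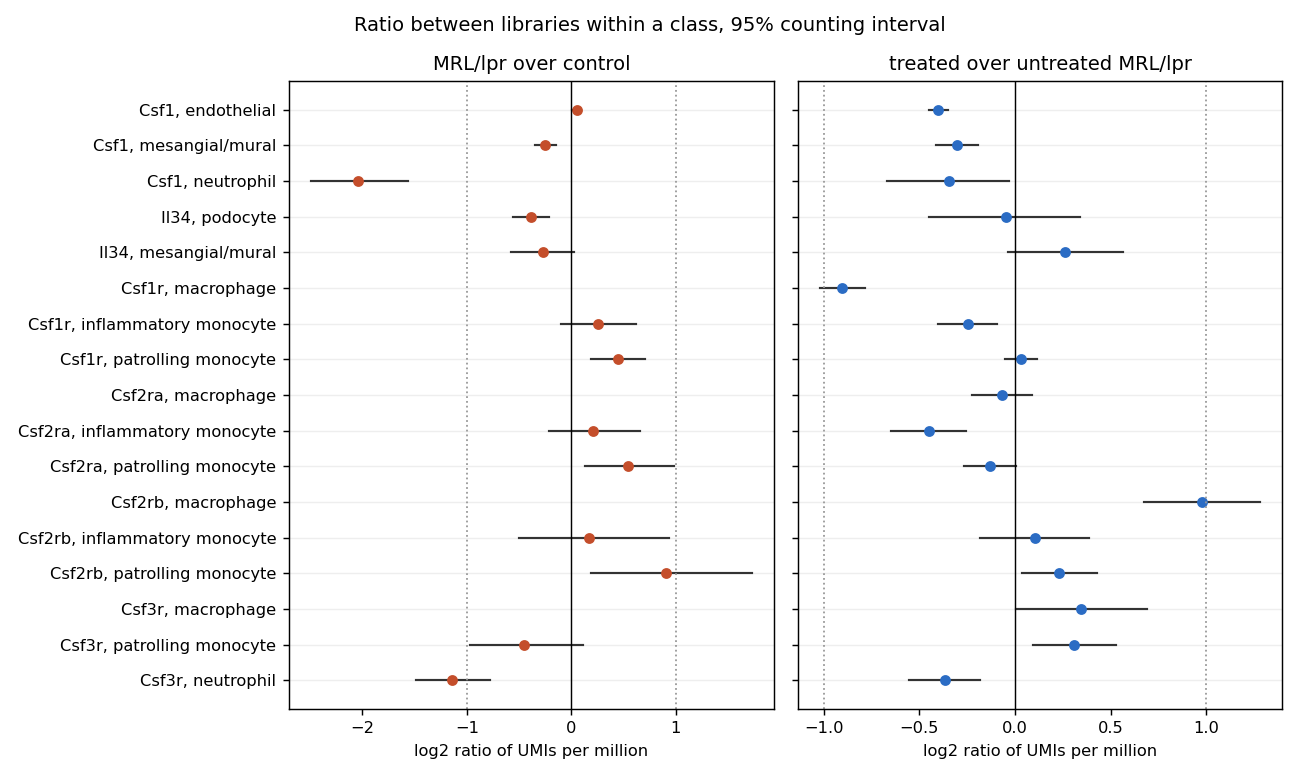
Log2 ratios of the members by class for MRL/lpr over control and for treated over untreated MRL/lpr, with exact conditional binomial 95% intervals and dotted lines at -1 and 1 (a 2-fold difference). Macrophage *Csf1r* (-0.90) and *Csf2rb* (0.98) lay on opposite sides of 0 in the treated comparison, and neutrophil *Csf1* (-2.04) and *Csf3r* (-1.15) lay below 0 in MRL/lpr against control.

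**Figure D5:**
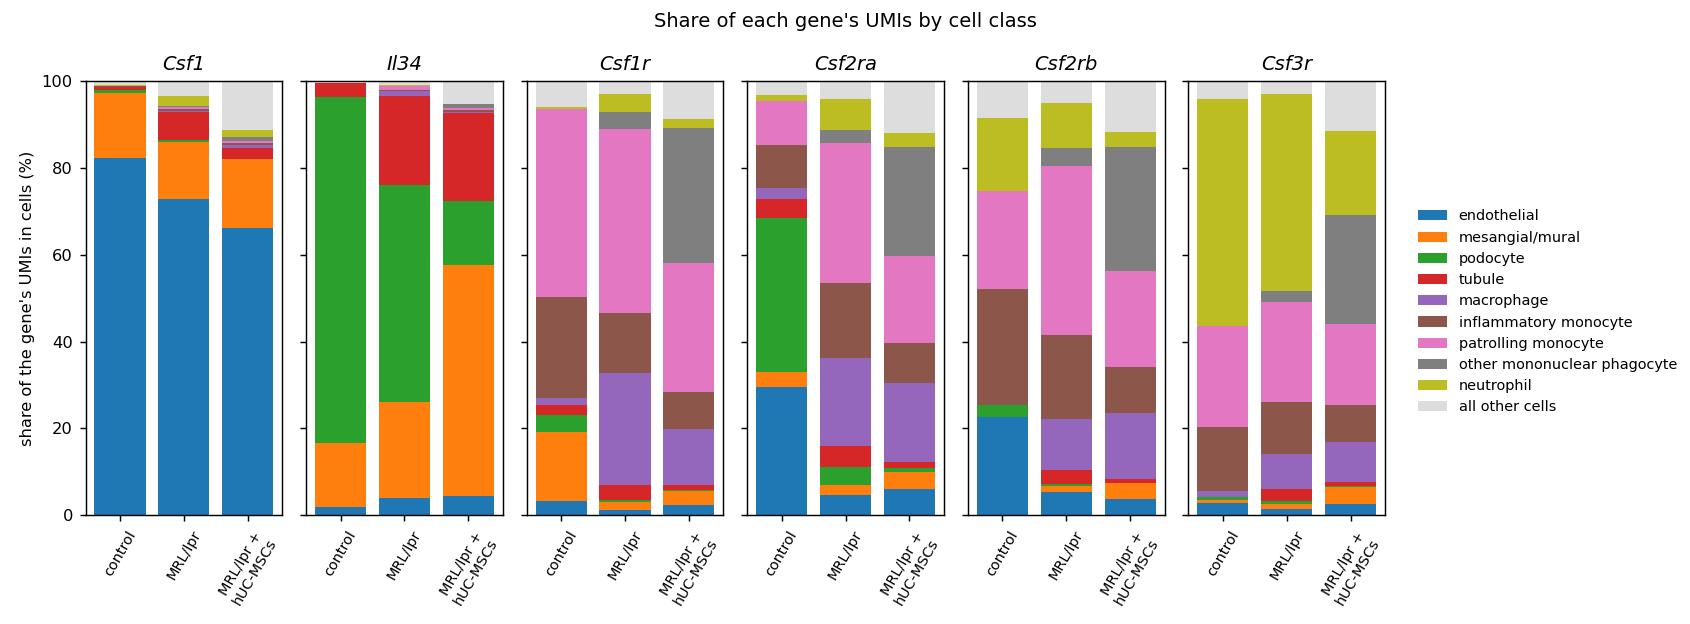
Share (percent) of each gene's UMIs in cells by class, as stacked bars for the 3 libraries, for the 6 members other than *Csf2*. Endothelial cells held 82.3%, 72.9% and 66.3% of *Csf1*, and podocytes 79.6%, 49.9% and 14.9% of *Il34*.

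By source and receiver, RNA of the ligand *Csf1* lay in endothelial cells (377 CPM in MRL/lpr), in the few neutrophils (270 CPM) and, below the empty droplets (117 CPM), in mesangial and mural (114 CPM) and tubule cells (76.5 CPM as a class), *Il34* in podocytes, tubule and mesangial and mural cells, and *Csf2* mostly in a few T and NK cells and 1 basophil or mast cell-like barcode. Their receptors lay in the monocytes, macrophages, neutrophils and, for *Csf2ra* (154 CPM) and *Csf2rb* (61.7 CPM), dendritic cells. Levels of RNA do not measure protein or signalling.

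Against all genes, the members were counted by a 2-fold difference in either direction, among genes with at least 20 UMIs over both libraries. In mononuclear phagocytes of MRL/lpr against control, 0 of 5 members differed by 2-fold, where 26.9% of all genes did, and the members' median log2 ratio was 0.19 against -0.06 over all genes. In neutrophils (23 control cells) *Csf1*, *Csf2rb* and *Csf3r* were lower and *Csf1r* higher by 2-fold, beside 36.1% of all genes. In tubule cells *Csf1r*, *Csf2rb* and *Csf3r* were higher, beside 27.6% of all genes. Their MRL/lpr levels of 24.1, 4.43 and 4.90 CPM lay below the empty droplets. In T and NK cells *Csf1*, *Csf1r* and *Csf2ra* were higher by 2-fold on 7, 0 and 1 control UMIs, beside 19.3% of all genes. Their MRL/lpr levels of 27.3, 12.5 and 12.0 CPM also lay below the empty droplets. In endothelial cells 3 of 6 were higher and none lower (16.8% of all genes in either direction), and the 3 (*Csf1r*, *Csf2rb* and *Csf3r*) were receptors below the empty droplets. Subtraction of the estimated free RNA left no *Csf1r* and no *Csf3r* in MRL/lpr endothelial cells. In mesangial and mural cells 2 of 4 were higher (18.6% of all genes), both receptors. *Csf1r* (3.48 CPM in the control and 9.41 in MRL/lpr) and *Csf2ra* (1.21 and 6.67 CPM) lay below the empty droplets in both libraries. The *Csf1r* ratio turned to -0.82 when free RNA was subtracted. In podocytes 2 of 4 were higher (15.7% of all genes), *Csf1r*, which at 0.732 and 5.70 CPM lay below the empty droplets (7.30 and 77.7 CPM), and *Csf2ra*. The members' medians in these 3 classes were 1.55, 0.59 and 0.93, against 0.03, 0.04 and -0.08 over all genes. Subtraction of free RNA also turned the ratios of endothelial *Csf2ra* (-0.37) and podocyte *Csf1* (-0.16).

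Of the treated comparisons, macrophages and neutrophils had 0 of 5 members past 2-fold, where 10.8% and 9.13% of all genes were, with medians of 0.35 and -0.35 against -0.18 and -0.17 over all genes. All mononuclear phagocytes had 1 of 6 past it (8.04% of all genes), *Il34*, which was at 1.51 and 0.649 CPM. Podocytes had 0 of 4 (8.63% of all genes). In tubule cells only *Il34* was past it, higher at 1.04 (0.64 to 1.43), beside 9.95% of all genes. In T and NK cells only *Csf1r* was, higher at 1.17 (0.44 to 1.93), beside 11.5% of all genes. Its T and NK levels of 12.5 and 28.2 CPM lay below the empty droplets. Endothelial cells had 2 of 6 higher, *Csf1r* and *Csf3r*, and mesangial and mural cells 2 of 6 higher, *Csf2rb* and *Csf3r*, each beside 10.3% of all genes, and all 4 of these levels lay below the empty droplets. The members' medians were 0.38, 0.73, 0.27 and 0.035 in endothelial cells, mesangial and mural cells, podocytes and mononuclear phagocytes, against 0.12, 0.11, 0.016 and -0.07 over all genes. Mesangial and mural *Csf1r* turned to -0.060 with clustering at 1 level, and *Csf2ra* to -1.22 after subtraction of free RNA.

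A list of 40 other genes of the pathway held other ligands, other receptors, signalling genes and transcription factors of myeloid growth. In MRL/lpr against control, 5 of 28 listed genes that could be compared were past 2-fold and higher in endothelial cells, 9 of 30 in mesangial and mural cells and 10 of 22 in podocytes, with none lower, where 16.8%, 18.6% and 15.7% of all genes were past 2-fold in either direction, and the list's medians were 0.40, 0.40 and 0.83 against all-gene medians of 0.03, 0.04 and -0.08. Of these higher genes, those above the empty droplets in MRL/lpr were *Kit* in endothelial cells, *Tslp*, *Tnfrsf11a* and *Klf4* in mesangial and mural cells and *Cebpb* in podocytes, and the others lay below them. In mononuclear phagocytes 4 of 30 were higher and 4 lower, where 26.9% of all genes were past 2-fold. In the treated comparison 3 were higher and 3 lower of 29 in endothelial cells, 4 and 4 of 31 in mesangial and mural cells, 2 and 0 of 22 in podocytes, 3 and 2 of 27 in macrophages, 0 of 20 in neutrophils and 1 and 1 of 32 in all mononuclear phagocytes, where 10.3%, 10.3%, 8.63%, 10.8%, 9.13% and 8.04% of all genes were past 2-fold in either direction. The list's medians in this comparison lay between -0.20 in neutrophils and 0.40 in podocytes, against all-gene medians of -0.17 and 0.016.

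Among the other ligands, *Kitl*, the stem cell factor, was an endothelial transcript at 673, 534 and 458 CPM. *Csf3*, the ligand of *Csf3r*, had 6, 30 and 31 UMIs in all cells, and *Il3* had none in any library. *Tnfsf11*, which encodes RANKL, read 1.78, 5.09 and 22.8 CPM in T and NK cells on 1, 11 and 34 UMIs, at 2.16 (1.15 to 3.29) for treated against untreated. The T cells of the 2 libraries were spread differently over clusters, with 477 treated and 368 untreated cells in that led by *Cd3g*, 64 and 457 in that led by *Cpm*, and 46 and 11 in the proliferating cluster led by *Pclaf*. Among the receptors, *Flt3*, the receptor of dendritic cell growth, read 139 and 212 CPM in dendritic cells of the MRL/lpr and treated library.

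Of the signalling genes, *Socs3*, a feedback inhibitor of cytokine receptors, read 1133, 1799 and 717 CPM in endothelial cells and 57.9, 359 and 214 CPM in podocytes. Endothelial *Socs3* was higher in MRL/lpr at 0.67 (0.64 to 0.69) and lower in the treated library at -1.33 (-1.36 to -1.30). *Cish*, a STAT5 target that also damps cytokine signals, read 34.2, 30.1 and 12.3 CPM in endothelial cells. *Klf4*, a transcription factor of both endothelium and monocytes, read 768, 1055 and 421 CPM in endothelial cells and 16.6, 67.4 and 35.3 CPM in podocytes. These 3 were the listed genes past 2-fold and lower in treated than in untreated endothelium, and the 3 higher were *Csf2rb2*, *Tyrobp* and *Spi1*, myeloid genes that lay below the empty droplets there. The endothelial cells of the 3 libraries lay mostly in different clusters, with 136, 3205 and 245 in that led by *Calca*. No ratio of the listed genes within these clusters was taken. In podocytes of MRL/lpr, *Socs3* and *Klf4* lay below the empty droplets.

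In the mononuclear phagocytes, *Cebpb*, a transcription factor of monocytes and granulocytes, read 5812, 2938 and 2186 CPM, and *Spi1*, which encodes PU.1, 661, 490 and 410 CPM. *Tyrobp*, an adaptor of myeloid receptors, read 2761, 3709 and 3719 CPM. These pooled levels compare different mixes of cells, with 6, 630 and 744 macrophages among 116, 2132 and 3668 mononuclear phagocytes. Those that fitted no name were 0, 120 and 1506, and the part of the mix in these levels was not tested. In macrophages, 2 listed genes were past 2-fold and lower in the treated library, and 3 were higher, *Csf2rb2*, *Flt3* (1.96 and 5.49 CPM) and *Sdc1* (0.734 and 11.9 CPM). *Maf*, a macrophage transcription factor, read 381 and 158 CPM, at -1.27 (-1.40 to -1.14), and *Dok2*, an adaptor that damps tyrosine kinase signals, 84.6 and 32.0 CPM, at -1.40 (-1.70 to -1.11). The macrophages of the libraries lay in different clusters, with 497 untreated and 165 treated cells in that led by *Cd5l*. That led by *Gpnmb* held 10 and 400, and no ratio of the listed genes within a cluster was taken.

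The genes whose class levels were most like each member's, by Pearson's r over 37 pools of 1 class in 1 library with at least 50 cells and among 12425 genes, were *Ddah2* (0.87), *Notch1* (0.87) and *Snrk* (0.86) for *Csf1*. They were *Sh2d4a* (0.92), *Arhgap44* (0.92) and *Chrna1os* (0.91) for *Il34*, and *Clec4a1* (0.98), *Adgre4* and *Clec4a3* for *Csf1r*. For *Csf2ra* they were *Spi1* (0.93), *Lst1* and *Gpr35*, for *Csf2rb* *Pirb*, *Ptafr* and *Nfam1*, and for *Csf3r* *Il1rn* (0.97), *C5ar1* and *Sirpb1b*. The pools share libraries and cell classes, so these values describe shared class patterns, and *Csf2* had too few UMIs to be compared.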

How the data were processed

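Glomeruli were isolated from collagenase-digested kidneys, and 1 droplet library with 3′ UMI counting was made per group (3 libraries, 1 per group). The authors deposited unfiltered UMI counts per gene and barcode for all 6794880 possible barcodes of each library. The submitters' processing notes name STAR, Cell Ranger 1.1.0, mm10, R 4.2.1, Seurat 4.2.0 and DoubletFinder 2.0.3, and the matrix header names a later Cell Ranger. The study's limits (200 to 3000 genes, mitochondrial share up to 10%, ribosomal share up to 5%) leave 671, 1031 and 699 of these barcodes (control, MRL/lpr, treated), where about 8000 captured cells are stated, so they were not used as the main filter.

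Barcodes with at least 1000 UMIs and at most 10% mitochondrial UMIs (11018, 14109 and 16586) were taken as cells, and 971, 1411 and 1659 doublets predicted with Scrublet (0.8% per 1000 barcodes) were removed. Cells were clustered over 2000 variable genes without the members or the pathway list (10 components, then 20 within leukocytes, 15 neighbours, Leiden resolution 1, seed 0; scanpy 1.11.5, igraph 0.11.9, Python 3.11.15, scipy 1.17.1). A cluster was named from marker lists that left out *Csf1r* and *Csf3r*, and the margin for naming and the merging of clusters into classes were set after the clusters were seen. The classes are rebuilt names, so they may differ from the study's. UMIs were summed per class and library. A level is UMIs per 1000000 UMIs with an exact Poisson 95% interval, a ratio has an exact conditional binomial 95% interval, and a share of cells is compared after thinning to 1000 UMIs. UMIs mark molecules, but intervals and the floor of 3 counts for a count of 0 cover counting error only. A gene entered a ratio where the libraries together held 20 or more of its UMIs in the class. The interval code was tested on simulated counts. The free-RNA share of a class is the median, over markers of unrelated classes, of the level in the class over that in droplets with 1 to 100 UMIs.

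The named genes are the 7 members, listed pathway genes past 2-fold or with the highest levels in a class, and the 3 genes most like each member. The members and lists were chosen with earlier results of these data known. With 1 library per group there was no test. Alternatives were at least 2000 UMIs, 200 to 3000 genes, a 5% mitochondrial limit, no doublet removal, clustering at 1 level (30 components and resolution 2 at once) and subtraction of free RNA. Gene positions are from the GENCODE annotation of GRCm38, where 32235 of 32285 gene identifiers were found, and promoters from RefSeq. Values of 1 proximal tubule cluster are not reported here.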

Additional observations from a re-analysis of the deposited data

Results flagged for a closer look

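Ratios in opposite directions between classes under the same contrast were looked for where both counting intervals excluded 0 and the level was above the empty droplets in both libraries, and the extreme pair is given for each of the 3 members that met this. Pairs with a class below the empty droplets were left out. None of these differences between classes was tested, since each contrast sets 1 library against 1. *Csf1* in MRL/lpr over control read 0.054 on the log2 scale in endothelial cells and -2.04 in neutrophils, where the medians over all genes were 0.03 and -0.27, and the endothelial value was -0.045 with the alternative clustering. *Csf2rb* in MRL/lpr over control read 0.91 in patrolling monocytes and -1.08 in neutrophils. Both neutrophil ratios rest on 23 control cells, and the control patrolling monocytes lay mostly (64 of 76 cells) in a cluster with 1 MRL/lpr cell. In the wider cluster led by *Clec4e*, *Csf2rb* read 76.6 CPM (49.6 to 113) in the control and 116 CPM (107 to 127) in MRL/lpr. *Csf3r* in treated over untreated MRL/lpr read 0.35 in macrophages and -0.37 in neutrophils, where the medians over all genes were -0.18 and -0.17. The macrophages of the 2 libraries lay in different clusters, where *Csf3r* read 0.45, -0.17 and -0.31 with intervals that included 0.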

How the results depend on the processing

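Of 104 member ratios, 585 values were computed under the 6 alternatives and, for 2 macrophage ratios, in the *Cd5l* cluster alone. A ratio with a level of 0 after subtraction of free RNA gave no value and is not counted, so ratios lost in this way do not show. Of the 585 values, 541 kept their direction and 526 lay inside the counting interval. For the 51 ratios whose interval excluded 0, 281 of 290 values kept their direction. The MRL/lpr log2 difference of *Csf1* between endothelial and mesangial cells (1.73) was 2.10 with 200 to 3000 genes, 1.49 with doublets kept and 1.82 with free RNA subtracted, that of *Csf1r* between patrolling monocytes and macrophages (0.76) was 0.67 with 200 to 3000 genes, and that of *Csf3r* between neutrophils and patrolling monocytes (3.10) was 2.58 with at least 2000 UMIs. Endothelial *Csf1* in MRL/lpr over control (0.054) was -0.045 with clustering at 1 level and 0.11 with free RNA subtracted. In treated over untreated macrophages, *Csf1r* (-0.90) was -0.64 with clustering at 1 level and -0.69 in the *Cd5l* cluster alone, and *Csf2rb* (0.98) was 0.44 in that cluster, an alternative chosen after seeing the data. The share of MRL/lpr *Csf1r* UMIs in patrolling monocytes (42.3%) was 46.9% with 200 to 3000 genes, 39.5% with doublets kept, 46.6% with clustering at 1 level and 46.3% with free RNA subtracted, and that of *Csf3r* in neutrophils (45.3%) was 31.5% with at least 2000 UMIs, 48.4% with 200 to 3000 genes, 42.7% with doublets kept and 50.6% with free RNA subtracted. Thinning brought the MRL/lpr share of cells with a UMI from 67.8% to 29.6% for endothelial *Csf1* and from 87.2% to 48.4% for patrolling monocyte *Csf1r*. Among single classes whose interval excluded 0, directions turned for MRL/lpr over control in endothelial *Csf2ra* (-0.37), mesangial *Csf1r* (-0.82) and podocyte *Csf1* (-0.16) with free RNA subtracted and proximal tubule *Il34* (-0.094) with doublets kept. Over all tubule cells together, *Csf1* was 49.1 and 76.5 CPM in control and MRL/lpr, and 45.6 and 42.1 CPM with free RNA subtracted. They turned for treated over untreated in mesangial *Csf1* (0.10) with 200 to 3000 genes, mesangial *Csf1r* (-0.060) with clustering at 1 level, mesangial *Csf2ra* (-1.22) with free RNA subtracted and T cell *Csf1* (-0.093) with doublets kept. The cause was not tested. The 5% mitochondrial limit moved none of the 12 main values beyond its interval. No paired analysis was possible because each group has 1 library. Depth limits *Csf2* and every control myeloid class (116 mononuclear phagocytes and 23 neutrophils).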
